A study of Mus musculus with 3 samples.

Results

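The genes described here are 10 regulators of haematopoietic progenitors: the receptor kinases Kit and Flt3 and the transcription factors Myb, Runx1, Meis1, Gata2, Gata1, Spi1, Cebpa and Gfi1. They were chosen by symbol, and each was represented by the probe set that carries this symbol alone and has the highest mean over the arrays. All 10 were found among 22087 genes measured in this way. The samples were 3 preparations of total RNA from stroma of mouse tumours of the genotype Dicer1 +/-, sorted as live cells negative for PECAM1, an endothelial surface protein that some leukocytes also carry, and for the red fluorescent protein tdTomato, which marked the tumour cells. The series title sets this stroma against that of tumours with both Dicer1 alleles, which was not analysed here, so all values describe 1 group and no difference between genotypes was measured. The title calls the tumours ASD, which the labels do not spell out. The age of the mice, the promoter behind tdTomato and whether the 3 samples came from 3 animals are not given in the labels used here.

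Blood cells arise from stem and progenitor cells, which need signals from KIT, the receptor of stem cell factor, and FLT3, the receptor of FLT3 ligand. The factors RUNX1, MYB, MEIS1 and GATA2 maintain progenitors, and GATA1, PU.1 (encoded by Spi1), C/EBPα and GFI1 direct them toward red cell, myeloid and granulocyte fates. Mature cells use many of these genes as well. Mast cells keep Kit and Gata2, dendritic cells keep Flt3, macrophages and neutrophils keep Spi1, and connective tissue cells can express Meis1.

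Levels are the deposited log2 intensities of Affymetrix arrays, 1 array for each sample, and no gene's level is set against that of another, since each probe has its own brightness. A gene counted as detected on an array when its value exceeded 95% of the 1438 probe sets for olfactory, vomeronasal and taste receptors there (their 95th percentile), which was 5.16, 5.11 and 5.20 for samples 1 to 3. The array medians were 5.35, 5.34 and 5.36. Sample 1 stood apart in Xist, the RNA of the silenced X chromosome, at 9.78, against 3.43 and 3.49 in samples 2 and 3. Sex was not analysed here, and other differences of sample 1 from samples 2 and 3 cannot be told apart from this one. Of the fibroblast and pericyte markers, 7 of 7 were detected on every array, with Col1a1 at 10.23, 10.43 and 9.79 in samples 1 to 3. Endothelial markers were detected as well, 5 of 6 on every array, and Pecam1 itself was at 8.02, 7.20 and 8.25 in these PECAM1-negative cells. Some were near the limit: Tek in sample 1, at 5.31, and Kdr and Vwf in sample 2, at 5.21 and 5.27. Emcn passed on 1 array. With 3 values and no repeat array, a difference between 2 samples could not be tested, and each SD below measures the spread of the samples, which may be technical. Of the 10 regulators, 0 had exactly equal values on 2 arrays. In such mixed samples, fewer cells of a type and less RNA in each cell cannot be told apart.

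Of the 10 regulators, 9 were detected on all 3 arrays, beside 60.5% of 20658 named genes outside the receptor families. All 10 were detected on at least 1 array, beside 66.0% of those genes. Gata1 was the one that did not pass everywhere, above the background in sample 2 alone. Gata2 and Gfi1 were detected near the limit: with the 99th percentile of the receptor probe sets as background, 7 regulators passed on every array, Gata2 passed on 1 array, and Gfi1 and Gata1 on none. The other 7 lay well clear of the background, by at least 1.37 in every sample.

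**Figure D1:**
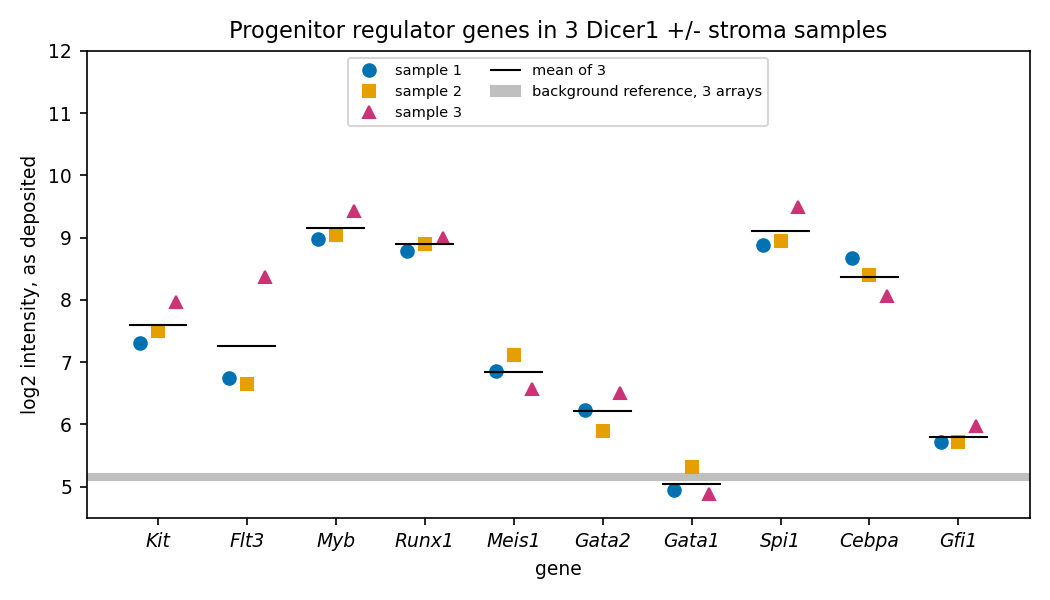
Level of each regulator as deposited log2 intensity (vertical axis) by gene (horizontal axis). Circles, squares and triangles are samples 1, 2 and 3 of Dicer1 +/- stroma, the black line is their mean, and the grey band spans the background reference of the 3 arrays, 5.11 to 5.20. Gata1 sits at the band, Gata2 and Gfi1 just above it, and the triangle of Flt3 far above its other symbols.

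Flt3 varied most. It stood at 6.74 in sample 1, 6.66 in sample 2 and 8.36 in sample 3 (mean 7.25 ± 0.96, SD, n = 3). Sample 3 was thus alone on the high side, 3.07-fold above sample 1 and 3.26-fold above sample 2, while samples 1 and 2 lay 0.085 apart on the log2 scale. Flt3 was the single regulator with a range above 1, that is over 2-fold, a size reached by 5.70% of 13636 genes detected on at least 1 array. A larger range than that of Flt3, 1.70, was found in 1.09% of those genes. Without sample 3 no regulator had a range above 1.

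Kit, which belongs to the same family of receptor kinases as Flt3, had the next largest range, 0.66, a 1.58-fold span. It was at 7.31, 7.50 and 7.97 in samples 1 to 3, with a mean of 7.60 ± 0.34 (SD, n = 3). The highest value was again that of sample 3, but samples 1 and 2 differed by 0.19 here, with sample 1 the lowest. A larger range was seen in 15.8% of detected genes.

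The promoters of these receptors are shown because they are the pair of regulators with the largest ranges, both highest in sample 3, and that of Meis1 as 1 of the 3 regulators that were lowest there. The windows are from RefSeq on GRCm38.p6, run 5′ to 3′ from 250 bases before the start of the transcript to 50 after it, and lie at chr5:147400440-147400739 on the minus strand for Flt3, chr5:75574737-75575036 on the plus strand for Kit and chr11:19018920-19019219 on the minus strand for Meis1. Capitals mark the letters of the RUNX motif (TGTGGT and also TGCGGT) and of the PU.1 motif (GAGGAA), on either strand.
Flt3: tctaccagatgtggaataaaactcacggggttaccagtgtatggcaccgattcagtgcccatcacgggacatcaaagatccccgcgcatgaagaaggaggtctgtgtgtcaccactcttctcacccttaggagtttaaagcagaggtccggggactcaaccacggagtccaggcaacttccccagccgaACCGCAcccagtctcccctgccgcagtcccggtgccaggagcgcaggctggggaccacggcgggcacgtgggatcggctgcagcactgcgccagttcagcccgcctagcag
Kit: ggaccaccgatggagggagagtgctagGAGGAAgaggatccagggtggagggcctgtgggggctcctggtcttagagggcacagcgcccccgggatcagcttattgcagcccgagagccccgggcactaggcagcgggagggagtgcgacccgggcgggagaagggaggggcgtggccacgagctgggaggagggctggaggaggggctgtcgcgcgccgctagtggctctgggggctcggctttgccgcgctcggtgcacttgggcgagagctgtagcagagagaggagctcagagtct
Meis1: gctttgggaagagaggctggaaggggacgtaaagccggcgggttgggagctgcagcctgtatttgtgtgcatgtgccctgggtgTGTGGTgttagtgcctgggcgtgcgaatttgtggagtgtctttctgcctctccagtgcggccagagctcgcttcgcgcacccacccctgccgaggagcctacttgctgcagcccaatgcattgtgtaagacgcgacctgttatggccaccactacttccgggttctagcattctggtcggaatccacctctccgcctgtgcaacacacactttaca
The Flt3 window holds 1 RUNX match, starting at -61 from the transcript start, the Kit window 1 PU.1 match, at -223, and the Meis1 window 1 RUNX match, at -166. Windows were found for 9 regulators, Spi1 having no entry, and 4 of them had a pair, giving 13 windows, of which those of Kit overlap almost completely. RUNX letters occurred in 3 of the 13 windows, against 22.4% of 32851 windows of all genes, and PU.1 letters in 4, against 28.3%. The RUNX matches were those of Flt3, Meis1 and the upstream start of Runx1 itself, which holds 2, and the PU.1 matches those of Kit, Gata1 and the downstream start of Runx1. GATA letters (the run GATA after A or T and before A or G, that is AGATAA and also AGATAG, and likewise TGATAA and also TGATAG) occurred in 0 of 13 windows against 29.8%, MYB letters (AACTG and also AACGG) in 4 against 55.1%, MEIS letters (TGACAG) in 0 against 19.2% and C/EBP letters (TTGCNNAA) in 1 against 10.8%, all on either strand. The C/EBP match, in a window of Gfi1, overlaps a MYB match. Of the other regulators lowest in sample 3, Cebpa and Gata1 have no RUNX letters in their windows. These are matches of letters in short windows and say nothing of binding. The bases G and C made up 57.3% to 75% of each of these windows except the upstream one of Runx1, with 45%. The median over the windows of all genes was 52.7%, and the shares above were not adjusted for this difference.

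Among the factors that maintain progenitors, Myb and Runx1 had their highest value in sample 3 and their lowest in sample 1. Myb, which keeps immature blood cells dividing, was at 8.98, 9.05 and 9.42 in samples 1 to 3 (mean 9.15 ± 0.24, SD, n = 3). A second Myb probe set, with a lower mean, read 7.65, 7.62 and 7.76, with a range of 0.14 against 0.45 for the first. Both were highest in sample 3, but the second was lowest in sample 2, so that the order of samples 1 and 2 holds on the first alone. Runx1, which is needed for the first blood stem cells of the embryo, was the steadiest regulator, at 8.79, 8.90 and 8.99 (mean 8.89 ± 0.10, SD, n = 3). Its range of 0.21 lay below the median range of detected genes, 0.31, and 68.1% of those genes had a larger one. Its level cannot be divided between its 2 transcript starts.

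Meis1, a homeodomain factor of stem cells and of several connective tissues, ran the other way. It was at 6.86 in sample 1, 7.11 in sample 2 and 6.57 in sample 3 (mean 6.85 ± 0.27, SD, n = 3), highest in sample 2 and lowest in sample 3. The same order was found in 7 of 7 fibroblast and pericyte markers, beside 18.0% of detected genes. It was also that of 5 of 7 detected mast cell and basophil markers and 3 of 4 erythroid genes. The summed linear intensity of the fibroblast and pericyte markers was 9153, 12694 and 6597 in samples 1 to 3. The part of any of these lists in the Meis1 values was not tested. Of the Meis1 paralogs, Meis3 had this order, at 6.34, 6.38 and 5.87, while Meis2 was at 6.28, 6.94 and 6.63, with sample 1 the lowest.

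The GATA factors did not share an order. Gata2, which progenitors and mast cells express, was at 6.22, 5.90 and 6.50 in samples 1 to 3 (mean 6.21 ± 0.30, SD, n = 3), with the highest value in sample 3 and the lowest in sample 2. Gata1, the factor of red cell, platelet, mast cell and eosinophil development, was at 4.95, 5.32 and 4.88 (mean 5.05 ± 0.23, SD, n = 3), with its highest value in sample 2. Since samples 1 and 3 lay below the background, the size of this range, 0.43, carries little weight. Gata1 lies on the X chromosome, and whether it differed in sample 1, which stood apart in Xist, cannot be read from values under the background. Gata3, the paralog of T cells and other lineages, was at 6.20, 5.86 and 6.73, in the same order as Gata2.

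The myeloid factors were split. Spi1, whose product PU.1 is needed for macrophages, granulocytes and B cells, was at 8.88, 8.95 and 9.49 in samples 1 to 3 (mean 9.11 ± 0.34, SD, n = 3), 1.53-fold higher in sample 3 than in sample 1. Gfi1, a repressor needed for neutrophil formation, was at 5.71, 5.72 and 5.98 (mean 5.80 ± 0.15, SD, n = 3), so that samples 1 and 2 were nearly equal and sample 3 stood above both. Cebpa, which opens the granulocyte and monocyte path and is also expressed by macrophages and fat cells, was at 8.67, 8.39 and 8.06 (mean 8.37 ± 0.30, SD, n = 3). It was the only regulator with its highest value in sample 1, and its lowest was in sample 3, the reverse of Spi1 and Gfi1. Its paralog Cebpb, at 8.39, 8.37 and 8.79, was highest in sample 3. So was Cebpe, a C/EBP factor counted below among the early granulocyte genes, at 8.10, 8.40 and 9.27.

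**Figure D2:**
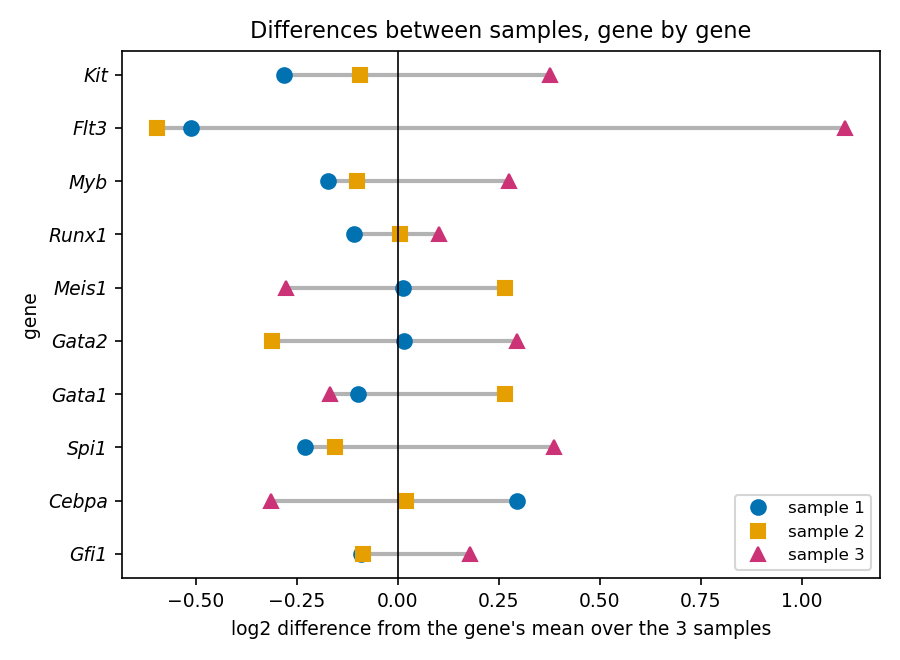
Difference of each sample from the gene's own mean over the 3 samples (horizontal axis, log2) for each regulator (vertical axis). Circles, squares and triangles are samples 1, 2 and 3, and the grey bar spans their range. The triangle is rightmost for 7 genes and leftmost for Meis1, Gata1 and Cebpa.

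Taking the 10 regulators as a list, 7 were highest in sample 3, beside 32.8% of detected genes, 2 in sample 2, beside 32.5%, and 1 in sample 1, beside 28.8%. The 7 were Kit, Flt3, Myb, Runx1, Gata2, Spi1 and Gfi1. Sample 1 held the lowest value of 5 regulators, beside 31.2% of detected genes, sample 3 of 3, beside 33.3%, and sample 2 of 2, beside 29.4%. Kit, Myb, Runx1, Spi1 and Gfi1 were lowest in sample 1 and highest in sample 3, an order found in 16.4% of detected genes. The order of samples 1 and 2 rests on small gaps for Gfi1, Myb and Spi1, 0.006, 0.071 and 0.074 on the log2 scale. For Myb the order is that of the brighter probe set. The list's median difference from the gene means was -0.10 in sample 1, -0.09 in sample 2 and 0.23 in sample 3, while that of all detected genes was within 0.01 of 0 in each. The median range of the regulators was 0.58, beside 0.31 for all detected genes, and a range over 1.5-fold was reached by 5 of 10, beside 19.9%. Without sample 3 the median range of the regulators was 0.15.

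**Figure D3:**
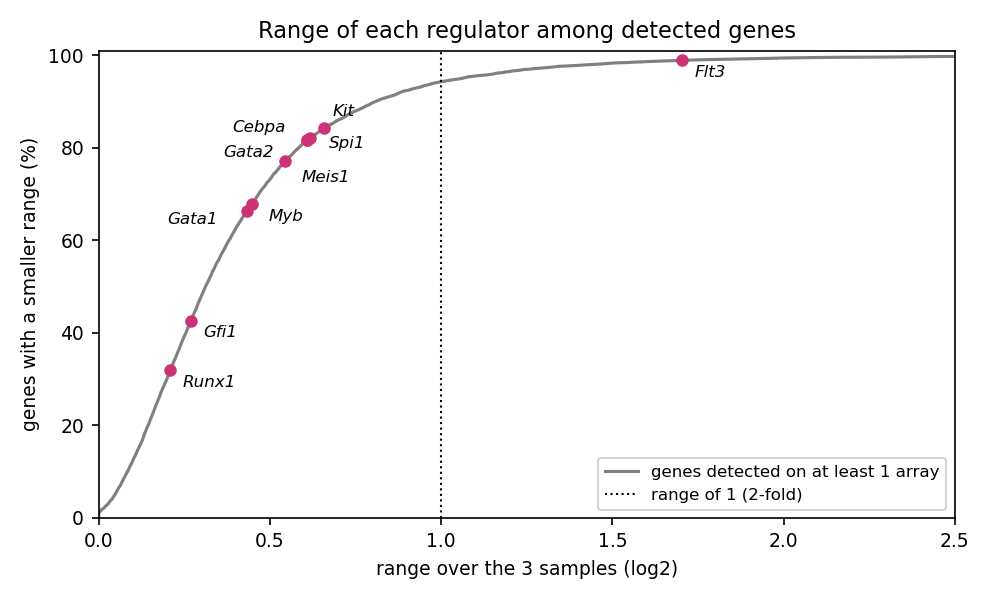
Share of genes with a smaller range (vertical axis, percent) against the range over the 3 samples (horizontal axis, log2). The grey curve is all 13636 genes detected on at least 1 array, points are the regulators, and the dotted line marks a range of 1. Flt3 lies at 98.9%, Kit at 84.2% and Runx1 at 31.9%.

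Of 8 cytokines of progenitors measured, 2 were detected on all 3 arrays, Csf1 at 7.76, 8.07 and 7.56 and the chemokine Cxcl12 at 9.63, 9.29 and 8.62 in samples 1 to 3. Kitl, which encodes the ligand of KIT, was at 5.59 in sample 1, 6.18 in sample 2 and 4.94 in sample 3, so that it lay under the background in the sample where Kit was highest. Il3, Epo, Csf2, Csf3 and Il7 were not detected on any array, and Flt3l and Thpo were not analysed here. The 3 cytokines detected anywhere were all lowest in sample 3, as were the fibroblast and pericyte markers.

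Receptors of other progenitor cytokines were detected throughout, 8 of 8 on every array, and 5 were highest in sample 3, beside 32.8% of detected genes. Csf3r, the receptor of the granulocyte factor G-CSF, had the largest range of them, 1.21, at 8.62, 9.04 and 9.83 in samples 1 to 3. Csf2ra was at 7.89, 8.02 and 8.36, and Csf2rb and Il3ra had the same order. Csf1r, at 10.35, 10.54 and 9.99, was lowest in sample 3, and Il7r, at 8.41, 7.86 and 8.04, was highest in sample 1. Epor, the erythropoietin receptor, had equal values of 5.89 in samples 1 and 3 and 5.92 in sample 2.

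Binding partners of the regulators were detected in 10 of 12 cases on every array, and 6 of the 11 detected on at least 1 were highest in sample 3. Cbfb, the partner that stabilises RUNX1 on DNA, was at 9.48, 9.43 and 9.44, and Lmo2, the bridging protein of GATA and TAL1 complexes, at 7.15, 7.17 and 7.17, both with ranges of 0.052 or less. Tal1 was at 5.05, 5.56 and 5.22, highest in sample 2 as Gata1 was, and under the background in sample 1. Hoxa9, a partner of MEIS1, was not detected on any array. Paralogs of the regulators were detected on every array in 11 of 14 cases and had no common direction, with 6 highest in sample 2, 5 in sample 3, 2 in sample 1 and 1 tied.

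Stem cell genes gave a mixed picture, with 6 of 9 detected on every array. Cd34, a surface protein of progenitors, fibroblasts and vessels, was at 9.68, 10.54 and 8.58 in samples 1 to 3, in the order of the fibroblast markers and of Meis1. Prom1 was at 5.63, 5.67 and 6.93, highest in sample 3 as Flt3 was. Procr was at 6.34, 6.75 and 6.18, and Slamf1 at 6.43, 4.75 and 5.48, below the background in sample 2. Mecom, a factor of stem cells, was not detected on any array.

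Most markers of granulocyte maturation had the order of Kit, Myb, Runx1, Spi1 and Gfi1. Of 7 genes of early granulocyte stages, 7 were detected, lowest in sample 1 and highest in sample 3, with Mpo, the peroxidase of the first granules, at 9.75, 10.56 and 10.99 and the protease gene Elane at 9.33, 9.93 and 10.81. Their summed linear intensity was 3242, 4571 and 7459 in samples 1 to 3. Of 10 genes of late stages, all were detected and 7 had this order, with Ltf at 11.02, 11.56 and 11.97 and a summed linear intensity of 23794, 26700 and 31548. The median range was 1.23 for the early genes and 0.63 for the late ones, both above that of the regulators. Genes of dividing cells were detected in 5 of 5 cases, with 4 highest in sample 3, and Mki67 was at 9.88, 9.65 and 10.07. The part of granulocyte precursors or of division in the regulators' values was not tested.

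Dendritic cell markers accompanied Flt3 in part. All 8 measured were detected on every array and lowest in sample 2. Of them, 5 were highest in sample 3: Cd209a at 8.25, 7.41 and 9.06, Itgax at 8.19, 7.09 and 8.72, and also Zbtb46, Xcr1 and Irf8. Siglech, at 7.45, 6.89 and 7.01, and Ccr7, at 8.39, 7.32 and 7.62, were highest in sample 1. Batf3 was tied at 6.49 in samples 1 and 3. The summed linear intensity of the 8 was 1655, 1008 and 1923 in samples 1 to 3. By this sum, sample 1 lay nearer to sample 3 than to sample 2. The single genes differed in this. Zbtb46, at 6.18, 6.14 and 6.57, had samples 1 and 2 close together, as Flt3 had. Itgax and Irf8, the latter at 8.28, 7.71 and 8.43, had sample 1 nearer to sample 3. Endothelial markers were highest in sample 3 in 5 of 6 cases, with a summed linear intensity of 488, 414 and 799. The part of either cell type in the Flt3 values was not tested.

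Most mast cell and basophil markers had another order than Kit. They were detected on every array in 6 of 9 cases and on at least 1 in 7, of which 6 were lowest in sample 3, where Kit was highest. Cpa3, a protease of mast cell granules, was at 9.0, 9.05 and 8.26 and Mcpt4 at 9.22, 9.55 and 8.42 in samples 1 to 3. The exception was Hdc, which makes histamine and is also expressed by granulocyte precursors, at 9.61, 10.15 and 10.94. Ms4a2 and Mcpt8 were not detected on any array. The summed linear intensity of the list was 2546, 3169 and 3087 in samples 1 to 3. Hdc had the highest value of the list in every sample, so this sum depends on it more than on any other marker. The median difference from the gene means, over the 7 detected markers, was 0.11, 0.28 and -0.45. The part of mast cells in the Kit values was not tested. Melanocytes also depend on Kit, and of their 5 markers Pmel and Mitf were detected, while Dct, Tyr and Mlana were not detected on any array.

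Lineages that use Gata1 also differed among the samples. The 4 erythroid genes measured were all highest in sample 2, as Gata1 was, with a summed linear intensity of 563, 782 and 586 in samples 1 to 3. Slc4a1, at 8.47, 8.94 and 8.65, had the highest value of the 4 in every sample, so the sum depends on it most. It was lowest in sample 1, and the other 3 genes in sample 3. Klf1, a factor of red cell precursors, was at 5.65, 5.95 and 5.11, and Ermap at 6.88, 7.49 and 6.83. In sample 3 Klf1 lay under the background, and Tspo2, at 5.23, just above it. Gfi1b, the paralog of Gfi1 in red cell and platelet precursors, was at 6.75, 7.29 and 6.61. The globin genes were not analysed here. Megakaryocyte genes were detected on every array in 4 of 6 cases without a common direction. Of the 5 eosinophil genes, 2 were detected on every array and 4 on at least 1, and the 4 were highest in sample 1, with Prg2 at 10.85, 10.42 and 8.41. The part of these lineages in the Gata1 values was not tested.

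Macrophage and lymphocyte markers were detected throughout and were not highest in sample 3. Of 5 macrophage markers, Adgre1 and C1qa had the order of Cebpa, with Adgre1 at 9.46, 9.19 and 8.47 and C1qa at 11.0, 10.88 and 9.95 in samples 1 to 3. This order was that of 13.6% of detected genes, and also of 3 of the 4 eosinophil genes detected on at least 1 array. Mertk, at 8.25, 8.39 and 7.64, was highest in sample 2 and lowest in sample 3. Cd68, at 10.80, 10.88 and 10.82, and Cd14, at 9.98, 10.21 and 10.20, were lowest in sample 1 and highest in sample 2. Their summed linear intensity was 5844, 5872 and 4520. All 7 lymphocyte markers were highest in sample 1, with a summed linear intensity of 2338, 897 and 1133. The part of these cell types in the regulators' values was not tested.

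**Figure D4:**
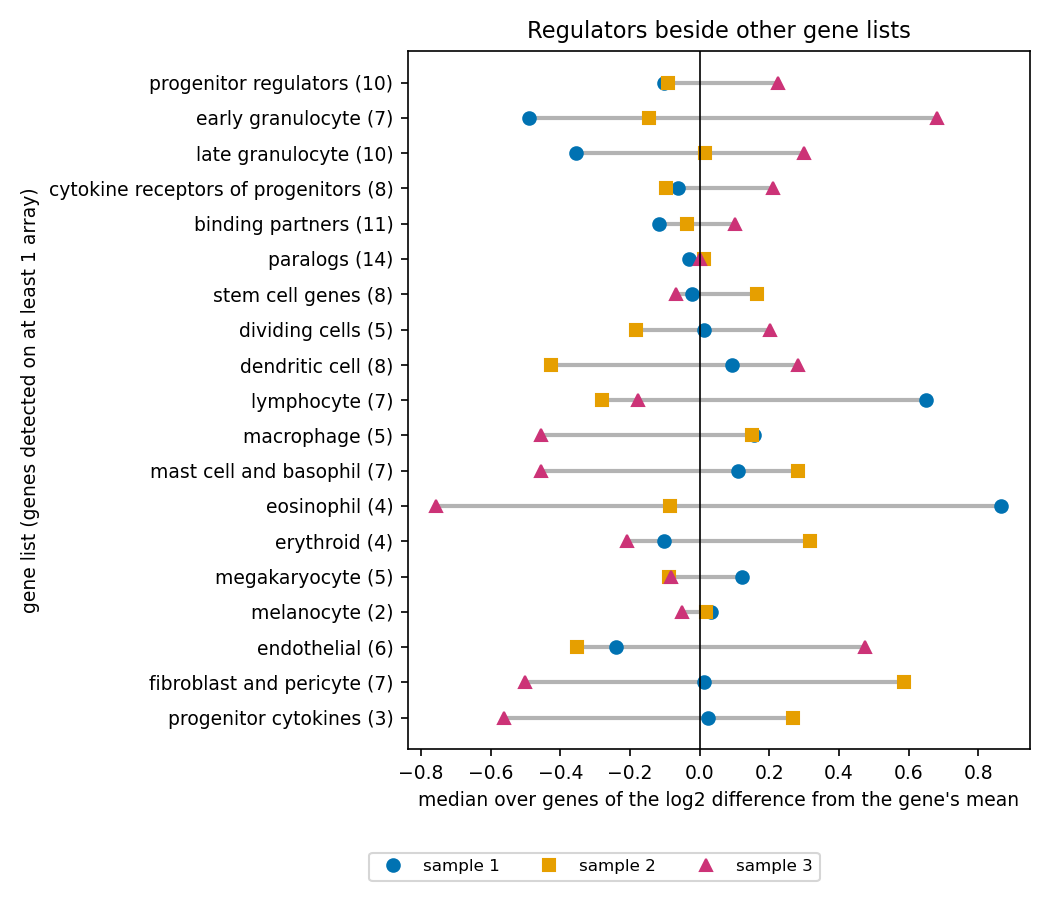
Median over the genes of a list of the log2 difference from the gene's mean (horizontal axis) for each list (vertical axis, with its number of genes detected on at least 1 array). Circles, squares and triangles are samples 1, 2 and 3. The regulators' triangle lies at 0.23, on the same side as the granulocyte, receptor, binding partner, dividing cell, dendritic and endothelial lists. That of the paralogs lies at 0.0005. The triangles of the remaining lists lie on the opposite side, with the eosinophil list furthest, at -0.76.

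For the 3 detected regulators with the largest ranges, the genes with the most similar values were listed, by the largest of the 3 differences after each gene's mean was subtracted, among the 12703 genes detected on at least 1 array that remain once unnamed gene models and the regulators are left out. For Flt3 they were Ccno, a cyclin-family gene, at 5.64, 5.57 and 7.14, which differed by 0.083, the endothelial sialomucin Emcn, which differed by 0.12, and Selp, the adhesion molecule P-selectin, at 5.47, 5.54 and 6.96, which differed by 0.15. Emcn was at 4.77, 4.49 and 6.37, under the background in samples 1 and 2. Ccno was the 1 gene within 0.1 of Flt3, a window that holds few genes around any gene of so large a range. For Kit they were Rffl, Kmt5a and Cst7, which encodes cystatin F of leukocytes, and 258 genes (2.03%) lay within 0.1 of Kit. For Spi1 they were Map2k3os, Svip and Pip5k1c, with 289 genes (2.28%) within 0.1. With 3 samples, so many genes resemble Kit and Spi1 that those named are a description only.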

How the data were processed

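Total RNA of sorted cells was labelled with biotin and read on Affymetrix arrays, per the labels. The authors deposited 1 log2 intensity for each of 31873 probe sets and 3 samples; Partek is named in the submitters' processing notes, while background correction, normalization and summarization are not given in the labels. The deposited numbers, 2.00 to 13.18, fit a log2 scale. With arrays, their number limits the precision.

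GEO's platform annotation gave 1 symbol to 23094 probe sets, several to 1764 and none here to 7015. Only the first were used, with the highest mean per gene. Detection required a value above the 95th percentile of the receptor probe sets of that array. The 3 samples form 1 group, so there is no test, and counts are set beside the same share over all genes. Counting steps were tested on simulated data. Named genes were the 10 regulators, the first 4 measured genes of a list, and the 3 most similar genes for each of 3 regulators; list genes named beyond these were chosen after their values were seen. The members and lists were chosen with earlier results of these data known. Promoters and chromosomes are from RefSeq tables (GRCm38.p6). Alternatives changed the background, normalization, probe set summary and size threshold, or left out a sample. Python 3.11.15, numpy 2.4.6, pandas 2.3.3 and matplotlib 3.10.9 were used.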

Additional observations from a re-analysis of the deposited data

How the results depend on the processing

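The number of regulators detected on all 3 arrays was 9, and 7 to 10 under the other backgrounds, normalization and summaries and without each sample in turn. The number with a range above 1 was 1, became 5 with a threshold of 1.5-fold, and was 0 to 1 when each sample was left out, the 0 being without sample 3. The median range of the regulators was 0.58, was 0.55 to 0.58 under quantile normalization, a common median or the mean of all probe sets, and was 0.15 to 0.45 when each sample was left out, the lowest without sample 3. Sample 3 held the highest value of 7 regulators under each of these settings that kept it. Comparing only 2 samples leaves fewer places for the highest value: sample 1 then held it for 3 regulators without either of the others, instead of 1, and sample 2 for 3 without sample 1 and 7 without sample 3, instead of 2. With 3 values, leaving out the sample furthest from the middle value always changes the range by at least 1 SD. A change of that size is fixed by arithmetic and only names the sample that stood furthest out. It was sample 3 for Kit, Flt3, Myb, Gfi1, Cebpa, Spi1 and Meis1, sample 2 for Gata1 and Gata2, and sample 1 for Runx1. The orders of the samples given for the regulators were found as often after quantile normalization and after a shift to a common median, but the deposited array medians, 5.34 to 5.36, were nearly equal already, so both change little by construction. The settings that leave out a sample or average probe sets for the counts of highest values, and those for the orders, were added after seeing the data. No paired analysis was possible because there is 1 group. Genes near the background, here Gata1, Gfi1 and Gata2, are limited by their signal over it.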
